A study of Mus musculus with 128 samples.

Results

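The 42 genes described here encode the folding, quality control and stress signalling machinery of the endoplasmic reticulum (ER), the compartment in which secreted and membrane proteins are made. They were chosen by gene symbol from the 35275 genes of the count table, and all 42 passed the filter on low counts. By role they are 10 genes of the BiP chaperone system, 3 of the lectin folding cycle, 4 disulfide isomerases, 2 prolyl isomerases, 9 of ER-associated degradation, 8 of translocation and signal peptide removal, 2 of the COPII vesicle coat, and 4 stress sensors or their factor. Livers came from male wild-type BALB/c and C57BL6/J mice, inbred strains bought at 8 weeks of age. All were trained for 1 week on an evening feeding schedule, then went without food for 21 h and without water after 4 pm. At 7 pm the fed groups received chow, in which 64.5% of calories came from carbohydrate and 10% from fat, and drank 20% glucose, 20% sucrose, 20% fructose or plain water. Sugar and water groups were sampled 3, 6 and 12 h into feeding, and 1 fasted group per strain, counted with water, at 0 h before any chow, so hours of feeding and time of day cannot be told apart. There were 5 libraries in 24 groups and 4 in the other two, BALB/c with glucose and BALB/c with fructose at 12 h. The labels do not say outright that each library is a separate mouse, so the p-values cover the spread among libraries, whatever its source.

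Hepatocytes secrete most plasma proteins, which enter the ER through the Sec61 channel and fold there with the help of BiP (the product of Hspa5), lectin chaperones and disulfide isomerases. Unfolded protein is sensed by membrane proteins, IRE1 (Ern1), PERK (Eif2ak3) and ATF6 (Atf6), which together make up the unfolded protein response. IRE1 splices the Xbp1 mRNA and ATF6 is cut to release a transcription factor, and both XBP1 and ATF6 raise genes for chaperones and for the degradation of misfolded protein. Splicing of Xbp1 and cleavage of ATF6 cannot be read from counts per gene.

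A known binding sequence for these factors is the ER stress response element (ERSE), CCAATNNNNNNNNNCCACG on either strand, described first in chaperone promoters. RefSeq windows on GRCm38.p6 that span 250 bases before to 50 bases after the gene's start were at hand for 33 of the 42 genes. The ERSE letters were found in 9 of these 33 windows (27.3%), against 37 of the windows of 27025 genes (0.137%). The 250 bases before the start of Hspa5, chr2:34771840-34772089 on the plus strand, are shown because this gene is the standard readout of the response, with the 2 blocks of the ERSE in capitals.
Hspa5: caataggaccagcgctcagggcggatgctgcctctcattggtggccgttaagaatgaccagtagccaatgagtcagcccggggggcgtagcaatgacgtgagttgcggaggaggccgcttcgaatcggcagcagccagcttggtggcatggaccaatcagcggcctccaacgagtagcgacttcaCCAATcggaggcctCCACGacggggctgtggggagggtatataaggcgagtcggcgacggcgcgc

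The elements of 6 more genes, of the BiP system and of other roles, are shown with 8 bases on each side and the blocks in capitals, so that their spacing can be compared. They are written as on the gene's own strand, and a block pair that starts with CGTGG is the element on the opposite strand.
Calr, chr8:84847067-84847101, minus strand: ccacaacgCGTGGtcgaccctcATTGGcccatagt
Pdia6, chr12:17266483-17266517, plus strand: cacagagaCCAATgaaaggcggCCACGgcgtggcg
Syvn1, chr19:6046524-6046558, plus strand: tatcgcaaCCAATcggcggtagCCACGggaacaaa
Derl3, chr10:75893234-75893268, plus strand: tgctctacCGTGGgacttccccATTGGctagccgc
Creld2, chr15:88819512-88819546, plus strand: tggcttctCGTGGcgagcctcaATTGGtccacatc
Hsp90b1, which has 2 of them, holds one at chr10:86705630-86705664, minus strand: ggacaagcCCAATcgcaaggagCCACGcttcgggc
The remaining genes with the letters were Canx and Dnajc3. The related ERSE-II, ATTGGNCCACG, was found in 2 of the 33 windows (6.06%), Herpud1 and Dnajb11, against 0.0444% of all windows, and is shown for Herpud1 since its values are set out apart below.
Herpud1, chr8:94386369-94386395, plus strand: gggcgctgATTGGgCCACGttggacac
The letters TGACGTGG were found in 1 window, that of Sec24d (3.03%), against 0.714% of all windows. A match of letters is a description and does not show that a factor binds there.

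Total counts were 18541545 to 43118895 per library, and the 42 genes took 0.456% to 1.957% of them. Summed markers of hepatocytes were 50800 to 141000 CPM (reads scaled to library size, with TMM factors), and all 9 were read. In bulk liver, fewer cells of a type and less RNA per cell cannot be told apart. A few libraries stood apart. C57BL6/J water replicate 2 at 0 h, labelled as fasted, had 2132 CPM of Hspa5, where the other 4 libraries of its group had 333 to 507. C57BL6/J water replicate 4 at 3 h was low, with a mean log2 CPM over the 42 genes of 6.29 and a group median of 7.03. BALB/c fructose replicate 4 had 6.30 at 3 h and 6.43 at 6 h, with group medians of 7.26 and 7.27. Over 1000 genes, 22 libraries lay nearer to another time than their own. Most of the 22 were replicate 4, including that replicate of every BALB/c group at 6 h. Among the 22 were replicates 1, 2 and 3 of C57BL6/J water at 0 h and replicates 2, 3 and 4 of BALB/c water at 6 h. Fits without the 22 rest on few libraries in those groups, so their power is lower there.

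**Figure D1:**
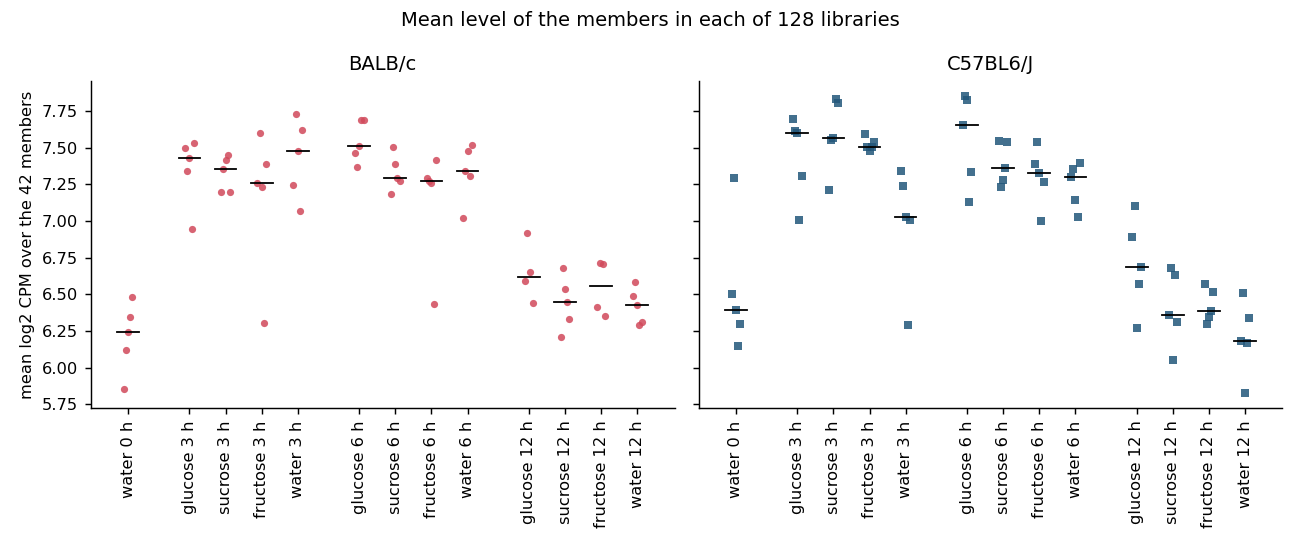
Mean log2 CPM over the 42 genes (vertical axis) in each library, by drink and hours of feeding, with BALB/c on the left and C57BL6/J on the right; points are libraries and bars are group medians. All groups at 3 and 6 h have medians of 7.03 or more, and the C57BL6/J library at 7.29 among the fasted ones is replicate 2.

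Most of this machinery was higher 3 h into feeding with water than before it. Of the 42 genes, 30 were higher at 3 h than at 0 h and 0 were lower, by edgeR's quasi-likelihood test at an adjusted p below 0.05 for the mean of both strains' effects. At an unadjusted p below 0.05, 32 were higher and 1 was lower, where 5909 of all genes passed in either direction, and DESeq2 called 1 lower. Of all 16886 genes tested, 12.7% were higher and 12.7% were lower. The median log2 fold change was 0.61 over the 42 genes and -0.01 over all genes tested. At 6 h, 31 were higher and 1 was lower, where 13.9% of all genes were higher and 14.9% lower. Of the 42 genes, 26 were higher at both times, and 13 were at least 2-fold higher at 3 h and 14 at 6 h. These were not counted over all genes. Their shares there can be at most the 12.7% higher at 3 h, and for the 2-fold count at 6 h the 13.9%.

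The BiP system had the largest median change of the role groups, with 9 of 10 genes higher at 3 h and a median log2 fold change of 1.60. Hspa5 had 2131, 4090.0, 2639, 1613 and 3292 CPM in BALB/c at 3 h, against 315, 302, 333, 424 and 488 at 0 h. The C57BL6/J libraries had 2161, 1877, 1355, 752 and 1533 CPM at 3 h, against 507, 2132, 438, 333 and 423 at 0 h. The BALB/c groups did not overlap, and the C57BL6/J groups did only through the library with fed levels at 0 h. Hspa5 rose by 1.94 ± 0.24 (SE) on the log2 scale, with 9 of 10 libraries higher and 6.42e-11 as the edgeR adjusted p.

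Sdf2l1, a member of chaperone complexes with BiP, had the smallest p of the BiP system. It had 140.4, 179.6, 186, 91.9 and 159 CPM in BALB/c at 3 h, against 6.26, 9.43, 13.7, 15.2 and 13.5 at 0 h. In C57BL6/J it had 132, 151, 84.3, 27.1 and 60.3 CPM at 3 h, against 11.3, 102, 11.8, 8.12 and 12.3 at 0 h. Apart from the 102 CPM of the library with fed levels, every 3 h library of a strain was above every 0 h library of that strain. It rose by 2.67 ± 0.27 on the log2 scale, with 9 of 10 libraries higher and an edgeR adjusted p of 9.65e-14.
Creld2 changed by 2.46 ± 0.28, Hyou1, an exchange factor and chaperone of the HSP70 family, by 2.12 ± 0.24, and the secreted factor Manf by 2.06 ± 0.23 on the log2 scale. Smaller rises were seen for Dnajb11 (1.26 ± 0.14), Dnajb9 (1.24 ± 0.26) and Dnajc3 (0.56 ± 0.18), co-chaperones that bring unfolded protein to BiP, and for the HSP90 chaperone Hsp90b1 (1.14 ± 0.16). Sil1, a nucleotide exchange factor for BiP, was the only gene of the 10 that did not pass the test, with -0.13 ± 0.08 and an adjusted p of 0.271.

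Of the lectin cycle, in which sugar-binding chaperones hold glycoproteins until they fold, Calr and Uggt1 were higher at 3 h. Calr had 974, 1457, 1019, 806 and 1141 CPM in BALB/c at 3 h, against 215, 292, 382, 409 and 409.6 at 0 h. It had 944, 811, 743, 459 and 715 CPM in C57BL6/J at 3 h, against 421, 937, 425, 339 and 311 at 0 h. Only the 937 CPM library at 0 h reached the 3 h range in C57BL6/J, and the BALB/c groups did not overlap. Its change was 1.13 ± 0.13 (edgeR adjusted p 1.85e-11). Uggt1, which returns misfolded glycoproteins to the cycle, changed by 0.37 ± 0.14 with an adjusted p of 0.0313. Canx, the membrane-bound relative of Calr, had 0.39 ± 0.17 with an adjusted p of 0.0789, and it was called higher at 6 h. Without libraries nearer to another time, its 6 h call was lost and it was called at 3 h.

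All 4 disulfide isomerases, which form and rearrange disulfide bonds, were higher at 3 h, with a median log2 fold change of 0.91. Pdia4 led with 365, 737, 417, 278 and 577 CPM in BALB/c at 3 h, against 54.7, 92, 87, 97.9 and 109 at 0 h. C57BL6/J livers had 347, 292, 213, 104 and 211 CPM at 3 h, against 112, 318, 91.7, 75.3 and 115 at 0 h. The BALB/c groups did not overlap, while in C57BL6/J the low 3 h library and the high 0 h library did. Pdia4 rose by 1.57 ± 0.20 on the log2 scale, at an edgeR adjusted p of 1.68e-10. Pdia3 changed by 0.96 ± 0.15, Pdia6 by 0.87 ± 0.15 and P4hb by 0.41 ± 0.09.
The 2 prolyl isomerases, Fkbp11 and Ppib, were not called at 3 h and rose at 6 h. Fkbp11 had 13.7, 16.9, 22, 33.9 and 39.6 CPM in BALB/c at 6 h, against 4.97, 20.6, 16.7, 16.6 and 10.6 at 0 h, and its change over both strains was 0.81 ± 0.24 (edgeR adjusted p 0.00602). Its BALB/c groups overlapped. Ppib changed by 0.58 ± 0.15 at 6 h, and by 0.10 ± 0.15 at 3 h.

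ER-associated degradation, which carries misfolded protein back to the cytosol, was split. At 3 h, 4 of its 9 genes were higher and the median log2 fold change was 0.15. Syvn1, the ubiquitin ligase of the pathway, had 519, 434, 448, 502 and 519 CPM in BALB/c at 3 h, against 59.8, 49.1, 56.7, 96.7 and 47.9 at 0 h. For C57BL6/J the values were 396, 372, 281, 334 and 143 CPM at 3 h, against 51.6, 336, 80.8, 75.6 and 51.9 at 0 h. Its change was 2.16 ± 0.28 (edgeR adjusted p 9.81e-10, 10 of 10 libraries higher). Its adaptor Sel1l changed by 0.72 ± 0.13, the lectin Edem1 by 0.64 ± 0.12 and the channel protein Derl3 by 1.52 ± 0.50. Derl1, Derl2, Edem2 and Os9 had log2 fold changes of -0.08 to 0.15 at 3 h and were not called.
Herpud1, a scaffold of the same complex, had 431, 459.7, 561, 338 and 703 CPM in BALB/c at 3 h, against 625, 297, 541, 463 and 736 at 0 h. The C57BL6/J libraries had 364, 299, 355, 104 and 244 CPM at 3 h, against 521, 305, 508, 660.4 and 648 at 0 h. The BALB/c groups lay over each other, and 4 of the 5 C57BL6/J libraries at 0 h were above the 3 h libraries. Over both strains its change was -0.52 ± 0.22, with an edgeR adjusted p of 0.0669. In C57BL6/J alone it was the 1 gene called lower at 3 h, a call lost without the low library of that group.

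Of the 8 genes of translocation and signal peptide removal, 7 were higher at 3 h and all 8 at 6 h, with medians of 0.56 and 0.75. Ssr1, a subunit of the translocon-associated complex, had 130.3, 201, 159.9, 116 and 179.9 CPM in BALB/c at 3 h, against 43.7, 78.7, 80, 84.3 and 98.3 at 0 h. It had 152, 142, 132, 89.6 and 166 CPM in C57BL6/J at 3 h, against 81.6, 169.5, 81.8, 80.9 and 88.9 at 0 h. Its change was 0.73 ± 0.11 (edgeR adjusted p 6.38e-08). The channel subunit Sec61b, with 0.30 ± 0.12 and an adjusted p of 0.0561, was the one not called at 3 h.
Both COPII genes, whose coat forms the vesicles that leave the ER, were higher at 3 h. Sec23b had 69.5, 119, 88.2, 73.8 and 97.4 CPM in BALB/c at 3 h, against 22, 28.5, 24, 29 and 33.3 at 0 h. It had 95.2, 86.3, 76.8, 48.4 and 91.4 CPM in C57BL6/J at 3 h, against 41.9, 91, 38.8, 29.9 and 28.9 at 0 h. Its change was 1.25 ± 0.15 (edgeR adjusted p 1.65e-11), and that of Sec24d was 0.56 ± 0.19.

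Of the sensors and their factor, Xbp1 and Eif2ak3 were higher at 3 h, and Ern1 and Atf6 were not called. Xbp1 had 173, 218, 182, 187 and 223 CPM in BALB/c at 3 h, against 95.5, 117, 111, 102 and 131 at 0 h. It had 288, 307, 242, 242 and 331 CPM in C57BL6/J at 3 h, against 183, 329.5, 197, 188 and 167 at 0 h. Its change was 0.61 ± 0.12 (edgeR adjusted p 2.61e-05, 10 of 10 libraries higher). For Syvn1, Ssr1, Sec23b and Xbp1 alike, the BALB/c groups did not overlap, and the C57BL6/J groups did only through replicate 2 at 0 h.
Eif2ak3 had 19.8, 27.9, 18.8, 16 and 27.2 CPM in BALB/c at 3 h, against 14.9, 6.89, 10.6, 8.45 and 18.1 at 0 h. In C57BL6/J it had 17.4, 17.3, 15.6, 9.39 and 16.4 CPM at 3 h, against 14.8, 16.6, 8.47, 8.99 and 12.3 at 0 h. The groups of each strain overlapped, and its change was 0.60 ± 0.18 (edgeR adjusted p 0.00659).
Ern1 had 58.2, 78.4, 51.2, 54.5 and 77.2 CPM in BALB/c at 3 h, against 63.6, 44.6, 38.1, 37.5 and 53 at 0 h, and its change over both strains was 0.23 ± 0.16 (edgeR adjusted p 0.343). Atf6 had 35.4, 50.5, 43.6, 39.3 and 41 CPM in BALB/c at 6 h, against 109.9, 35.2, 42.1, 34.5 and 68.5 at 0 h. C57BL6/J livers had 37.2, 50, 44.6, 42.5 and 46.3 CPM at 6 h, against 85.6, 63.9, 51.8, 45.6 and 60.3 at 0 h. It was the 1 gene of the 42 called lower at 6 h, by -0.47 ± 0.18 (edgeR adjusted p 0.0358, 0 of 10 libraries higher). Without the libraries nearer to another time that call was lost, and the spread at 0 h was wide in both strains.

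**Figure D2:**
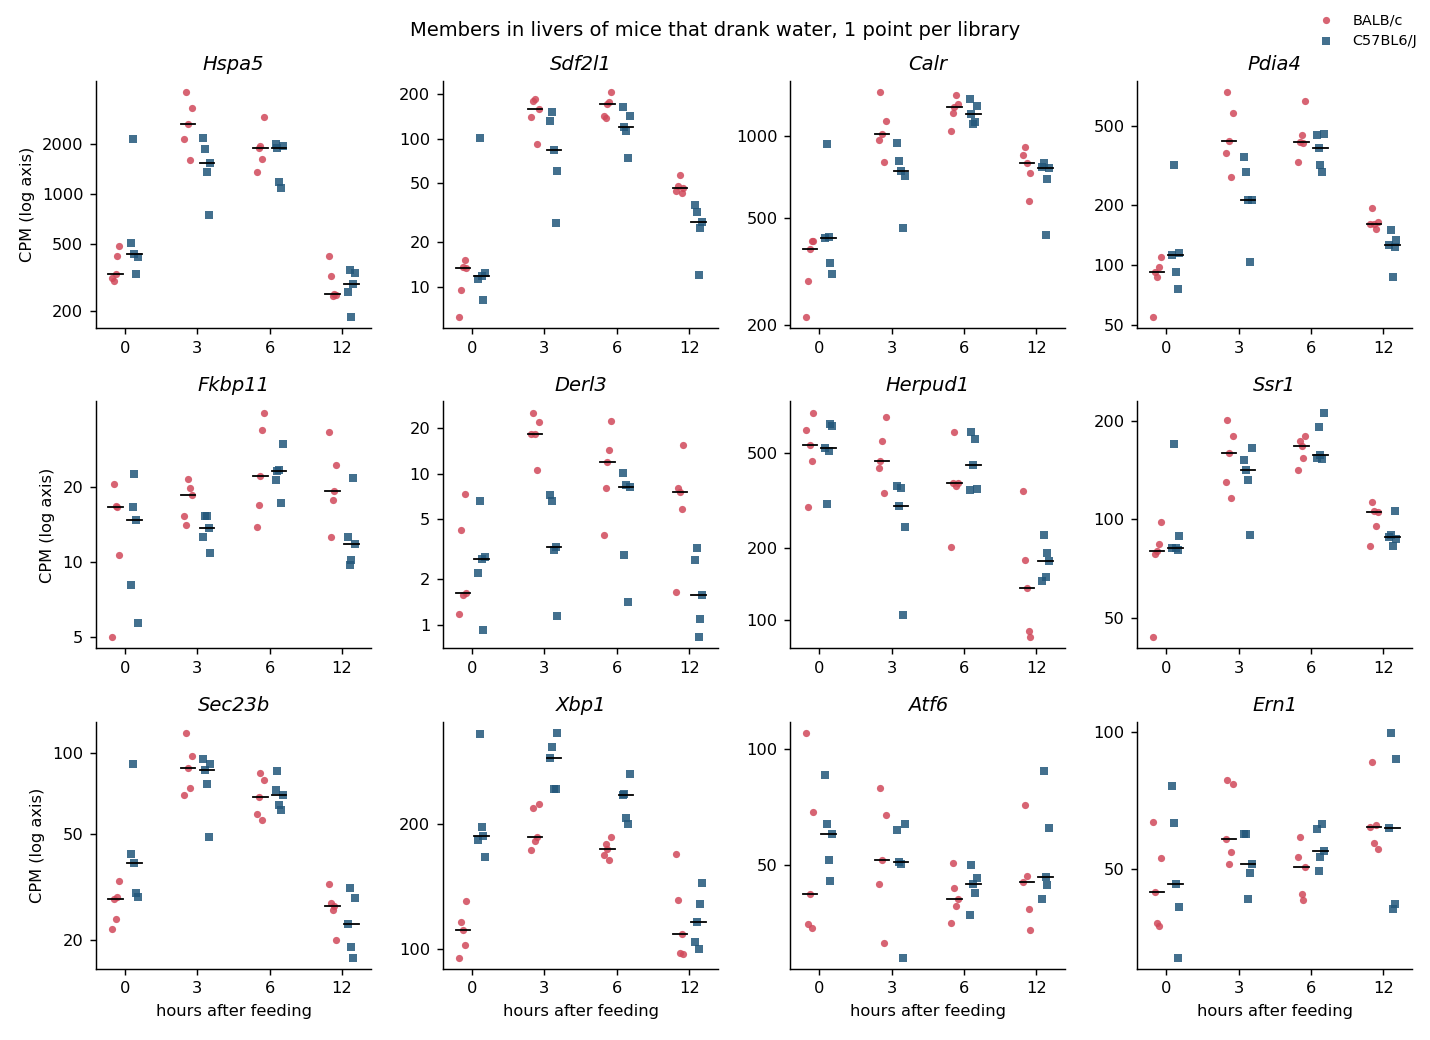
CPM on a log axis of 12 of the genes at 0, 3, 6 and 12 h of feeding with water; each point is a library, red circles are BALB/c, blue squares are C57BL6/J, and bars are medians. The chaperones Hspa5, Sdf2l1, Calr and Pdia4 are high at 3 and 6 h, Herpud1 is lowest at 12 h, and the blue square apart from its group at 0 h is replicate 2.

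Against 3 h, 6 genes were higher and 1 was lower at 6 h, where 3.84% of all genes were higher and 4.25% lower. Calr (0.48 ± 0.13), Pdia3 (0.50 ± 0.15), Ppib (0.49 ± 0.15), Derl2 (0.39 ± 0.09), Spcs2 (0.38 ± 0.10) and Sec61b (0.40 ± 0.12) were higher at 6 h. Dnajb9 fell by 0.89 on the log2 scale, with 58.4, 89.1, 92.2, 46.1 and 99.3 CPM in BALB/c at 6 h, against 149, 212, 167, 101 and 259.7 at 3 h. Its BALB/c groups did not overlap. Its C57BL6/J groups did, with 24.51 to 121.5 CPM at 3 h and 35.74 to 89.72 at 6 h. For the mean of both strains the edgeR adjusted p was 0.0171. Without the low C57BL6/J library at 3 h, 4 genes were called in this step, without libraries nearer to another time 0, and in libraries with no name suffix 2.

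By 12 h most of the 42 genes had come down from their level at 6 h. Against 6 h, 34 of the 42 genes were lower at 12 h, where 14.3% of all genes were lower, among them all 10 of the BiP system and all 8 of translocation. Summed skeletal muscle markers were also low at 12 h on water, with a median of 0.895 CPM in BALB/c, against 143 at 6 h, and of 1.52 CPM in C57BL6/J, against 277 at 6 h, and their part in this fall was not tested. Creld2 fell by 3.79, Manf by 3.04, Hyou1 by 2.67, Hspa5 by 2.60 and Syvn1 by 2.36 on the log2 scale, each in 10 of 10 libraries. The 8 genes not called were Derl1, Derl3, Os9, Ppib, Fkbp11, Ern1, Atf6 and Eif2ak3.
Against 0 h, 5 genes were higher at 12 h and 11 lower, where 8.31% of all genes were higher and 9.3% lower. Those still higher were Calr (0.84 ± 0.13), Pdia6 (0.75 ± 0.15), Pdia3 (0.59 ± 0.15), Sdf2l1 (0.95 ± 0.26) and Ppib (0.41 ± 0.15), all of them folding factors. Of the 11 called lower, 7 rested on C57BL6/J replicate 2 at 0 h. Without it, Hspa5, Hyou1, Manf, Syvn1, Sec23b, Ssr2 and Xbp1 were no longer called, 4 genes were lower (Creld2, Dnajb9, Edem2 and Herpud1), and 7 were higher, with Pdia4 and Sec61b added. The calls of Creld2 and Ppib were also lost in libraries with no name suffix and without libraries nearer to another time. Hspa5 had -0.87 ± 0.23 in all libraries and -0.45 without that one (adjusted p 0.135).
Herpud1 had the lowest log2 fold change of the 42 at 12 h. It had 346, 178, 136, 90 and 84.5 CPM in BALB/c at 12 h, against 625, 297, 541, 463 and 736 at 0 h. For C57BL6/J the values were 145, 227, 151, 190.5 and 176 CPM at 12 h, against 521, 305, 508, 660.4 and 648 at 0 h. The C57BL6/J groups did not overlap, and 1 BALB/c library at 12 h reached into the 0 h range. Its change was -1.62 ± 0.22 (edgeR adjusted p 7.72e-09, 0 of 10 libraries higher).
Derl1, Ern1, Os9 and Sil1 were called at none of the 3 times in all libraries. Ern1 was called higher at 12 h without libraries nearer to another time, and likewise without the 4 that stood apart. In C57BL6/J, Derl1 had 146, 138, 144, 129.9 and 125 CPM at 0 h, 152, 131, 151, 96.8 and 146 at 3 h, 132, 146, 131, 143 and 156 at 6 h, and 116, 134, 104, 127 and 118 at 12 h, and these groups overlapped.

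**Figure D3:**
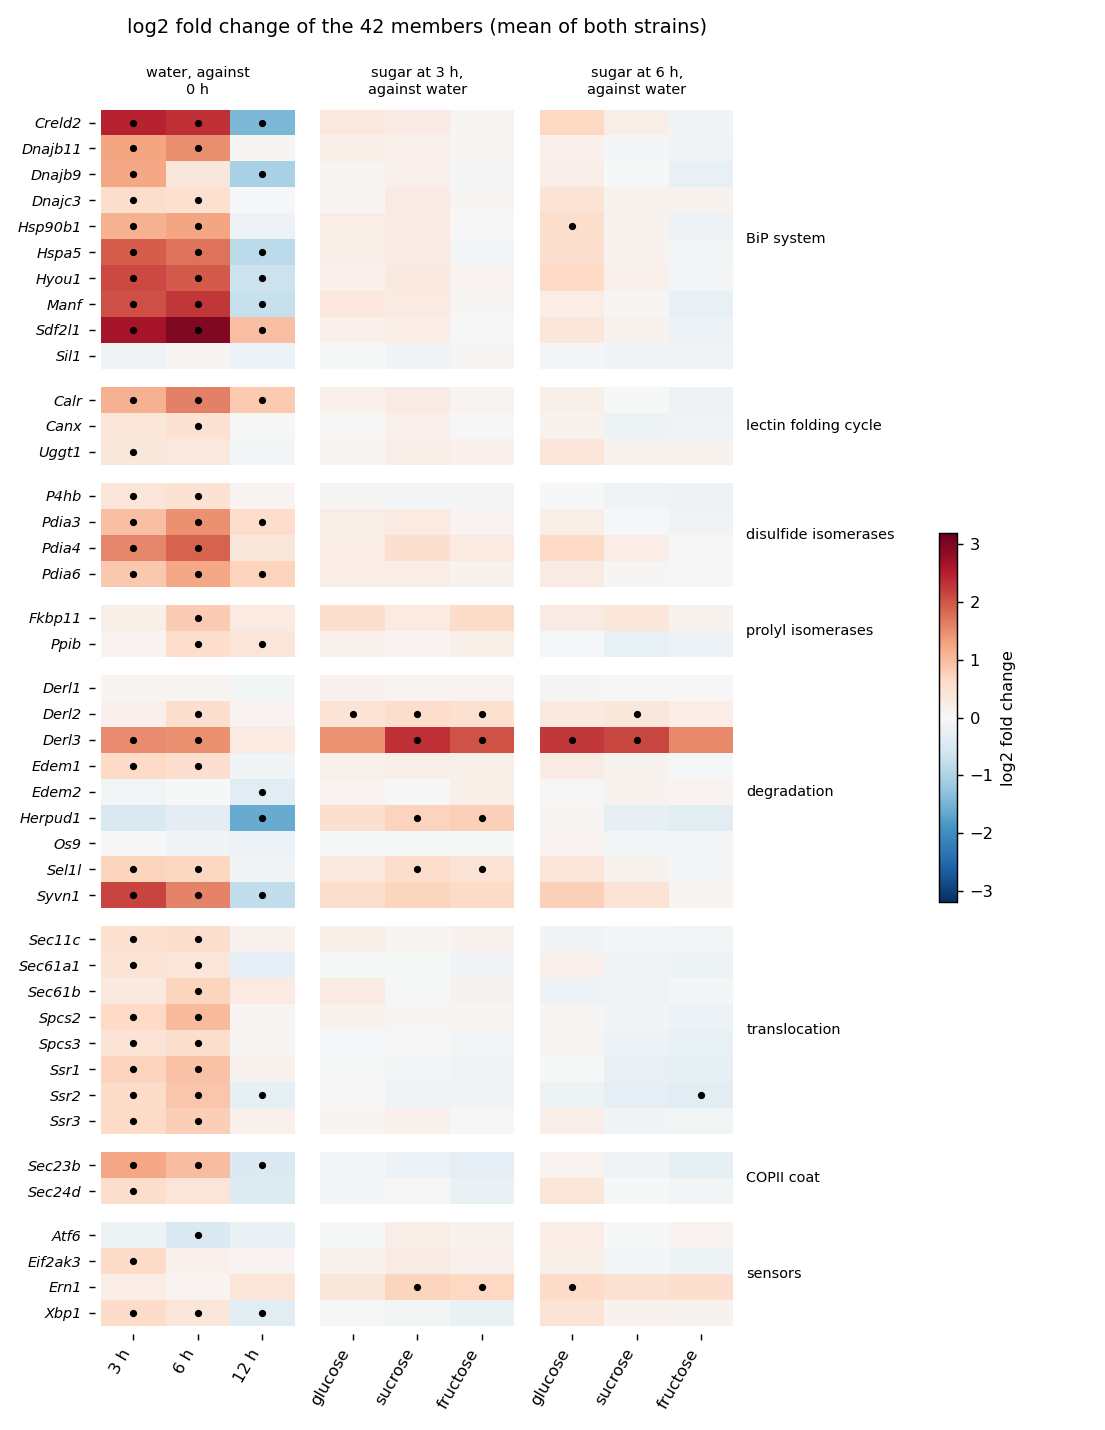
Log2 fold change (colour, red higher and blue lower) of each of the 42 genes, in rows by role, for water at 3, 6 and 12 h against 0 h and for each sugar against water at 3 and 6 h; values are the mean of both strains and a dot marks an adjusted p below 0.05. Most BiP, disulfide isomerase and translocation rows hold dots at 3 and 6 h of feeding, and in the sugar columns at 3 h they lie in Derl2, Derl3, Herpud1, Sel1l and Ern1.

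On the deposited FPKM scale, which allows levels of different genes to be set side by side, P4hb was first at 0 h with a median of 301 FPKM over the 10 water libraries, followed by Herpud1 with 268, Calr with 168 and Hspa5 with 147. At 3 h Hspa5 was first with a median of 766 FPKM, before P4hb with 436 and Calr with 398. The range of Hspa5 at 3 h, 331 to 1666 FPKM, overlapped that of P4hb, 321 to 558, and that of Calr, 242 to 710, so the order of these 3 is not beyond their spread. Derl3 (1.72 FPKM at 0 h), Eif2ak3 (2.43), Uggt1 (5.84), Ern1 (6.57) and Atf6 (7.52) were the lowest at 0 h. The ranges of Derl3 and Eif2ak3 overlapped, as did those of Uggt1, Ern1 and Atf6, while the highest Eif2ak3 library (3.76) was below the lowest of these 3 (4.21).

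Of the 9 genes with an ERSE in the window, 8 were higher at 3 h on water, with a median log2 fold change of 1.14. Of the 24 with a window and no ERSE, 16 were higher, with a median of 0.61. Herpud1 and Dnajb11, which share ERSE-II, had -0.52 and 1.26.

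The strains were also fitted apart. In BALB/c, 32 genes were higher at 3 h, where 9.14% of all genes were, and 31 at 6 h, where 9.27% were. In C57BL6/J, 11 were higher at 3 h, where 5.35% of all genes were, and 20 at 6 h, where 6.53% were. Without C57BL6/J replicate 2 at 0 h, 19 were higher at 3 h in that strain. Without the low 3 h library 15 were, and without these and the BALB/c fructose libraries that stood apart 22 were. At 12 h, 5 were higher in BALB/c, where 5.04% of all genes were, and 11 were lower in C57BL6/J, where 4.36% were. In C57BL6/J at 12 h, 3 of those 11 calls remained without replicate 2, and Calr, Pdia6 and Sdf2l1 were then higher.
The difference between strains in the change at 3 h was called for 8 of the 42 genes, where 0.338% of all genes were called. BALB/c minus C57BL6/J was 1.42 ± 0.31 for Hsp90b1, 1.72 ± 0.39 for Pdia4, 1.17 ± 0.26 for Sel1l, 1.88 ± 0.46 for Hspa5, 1.07 ± 0.26 for Calr, 1.87 for Hyou1, 2.07 for Sdf2l1 and 2.14 for Creld2. Without C57BL6/J replicate 2 at 0 h, Sel1l alone was called, at 1.06 ± 0.27 (edgeR adjusted p 0.0447), and Hspa5 had 1.03 ± 0.42 (adjusted p 0.334). Without the low C57BL6/J library at 3 h, 0 were called, and Sel1l had 1.09. At 6 h, 0 of the 42 were called by edgeR, and 13 passed an unadjusted p below 0.05, all with the larger change in BALB/c. Over all 16886 genes, 1379 passed it in either direction. At 12 h, 3 were called, where 0.278% of all genes were: Sdf2l1 (2.19), Manf (1.79) and Xbp1 (0.96). None of these 3 was called without replicate 2.

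**Figure D4:**
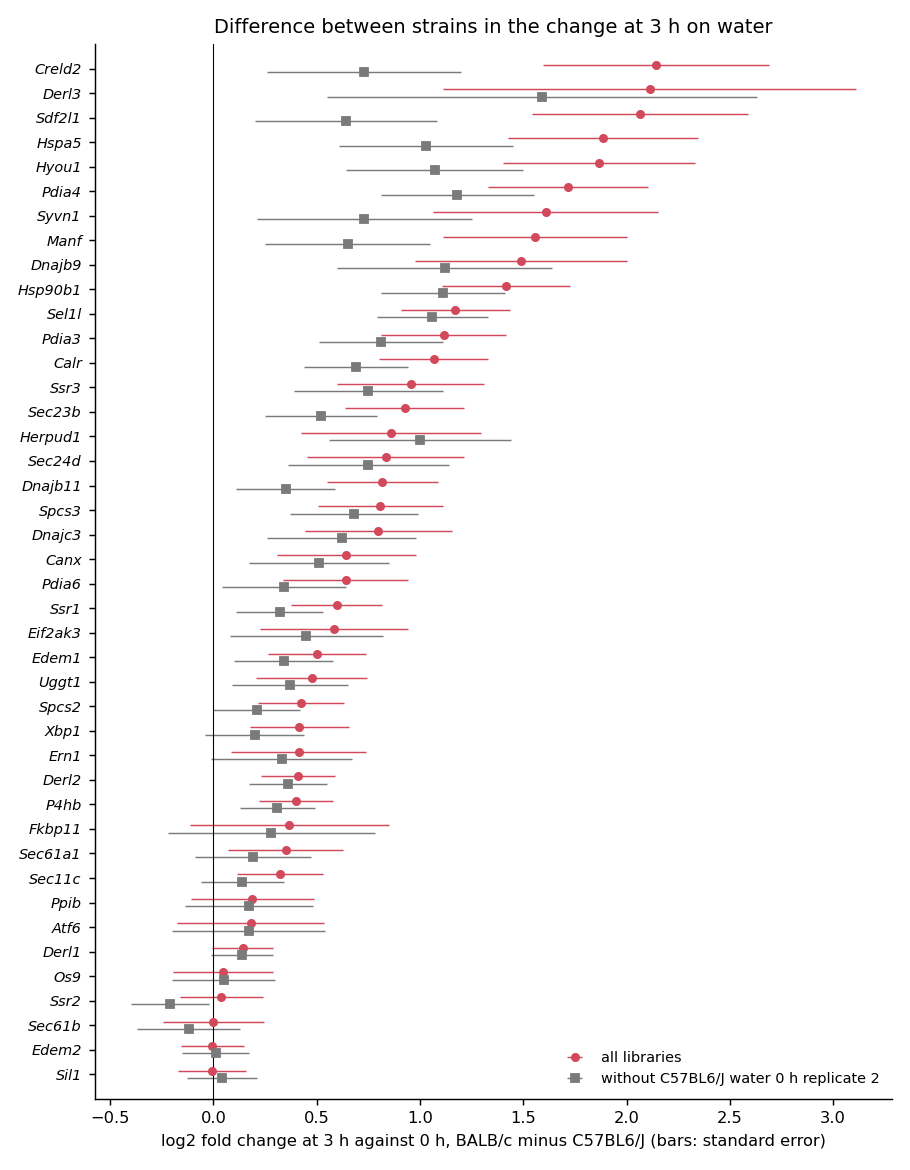
BALB/c minus C57BL6/J difference in the log2 fold change at 3 h against 0 h on water (horizontal axis) for each of the 42 genes, with bars of 1 standard error; red circles use all libraries and grey squares leave out C57BL6/J water replicate 2 at 0 h. Hspa5 sits at 1.88 in all libraries and at 1.03 without that one.

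Over all drinks and times, BALB/c differed from C57BL6/J in 9 genes, 2 higher and 7 lower, where 28.7% of all genes were higher and 26.5% lower. P4hb, the isomerase with the highest FPKM, had 522, 699.5, 746, 856 and 878 CPM in BALB/c at 0 h, against 1292, 1444, 1074, 998 and 963 in C57BL6/J, with no overlap. Over all groups its difference was -0.51 ± 0.04, with 2 of 63 BALB/c libraries above the C57BL6/J mean of their drink and time (edgeR adjusted p 1.1e-25). Xbp1 was next with -0.38 ± 0.05 and 6 of 63 libraries (edgeR adjusted p 1.87e-11), then Syvn1 (-0.44 ± 0.11), Ppib (0.23 ± 0.06) and Edem1 (-0.18 ± 0.05).
At 0 h, 13 genes were lower in BALB/c, where 7.67% of all genes were. Without C57BL6/J replicate 2, only P4hb (-0.55 ± 0.13, adjusted p 0.00117) and Xbp1 (-0.72 ± 0.17, adjusted p 0.00107) were called. Without libraries nearer to another time neither was, at -0.45 for P4hb (adjusted p 0.0656) and -0.63 for Xbp1 (adjusted p 0.0555).

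At 3 h the genes called for sugar in the drink were of the degradation pathway, with the sensor Ern1. None of the genes of the BiP system, lectin cycle, isomerases, translocation or COPII coat was called for any sugar against water at this time, for the mean of both strains. The median log2 fold change of the BiP system was 0.18 with glucose, 0.26 with sucrose and 0.03 with fructose. Hspa5 itself had 0.21 ± 0.23, 0.27 ± 0.23 and -0.06 ± 0.23 with these sugars. The 3 sugars were set against the same water libraries, so their values are not independent of each other.
With glucose, 1 gene was called, where 0.166% of all genes were higher: Derl2, a channel subunit of the degradation pathway, by 0.43 ± 0.09 (edgeR adjusted p 0.0106, 10 of 10 libraries). With sucrose, 5 were higher, where 1.65% of all genes were, and with fructose 5 were, where 3.37% were. Derl2 changed by 0.58 ± 0.09 with sucrose and 0.51 ± 0.09 with fructose, Derl3 by 2.33 ± 0.49 and 2.03 ± 0.49, Sel1l by 0.60 ± 0.13 and 0.45 ± 0.13, Herpud1 by 0.73 ± 0.22 and 0.77 ± 0.22, and the sensor Ern1 by 0.72 ± 0.16 and 0.66 ± 0.16.

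Derl2 had 129, 155, 144, 178 and 156 CPM with sucrose in BALB/c, against 101, 113, 122, 114 and 122 with water. The C57BL6/J libraries had 180.3, 169, 213, 179.8 and 170.5 CPM with sucrose, against 112, 116, 129, 76.3 and 112 with water. The groups did not overlap in either strain (edgeR adjusted p 5.89e-06).
Ern1 had 77, 100.2, 106, 73.1 and 118 CPM with sucrose in BALB/c, against 58.2, 78.4, 51.2, 54.5 and 77.2 with water, and these groups overlapped. In C57BL6/J it had 122, 82.2, 86, 86.3 and 107 CPM with sucrose, against 59.9, 59.6, 43, 49.1 and 51.3 with water, with no overlap.
Derl3 spread widely. C57BL6/J livers had 5.62, 134, 54.4, 49.8 and 58.5 CPM with sucrose and 40.9, 123, 29.2, 93.6 and 14.1 with fructose, against 7.26, 6.61, 3.11, 3.27 and 1.15 with water. In BALB/c it had 39, 13.4, 15.6, 93.8 and 7.95 CPM with sucrose and 10.4, 49.1, 21.4, 1.71 and 29.7 with fructose, against 18.4, 25.4, 18.4, 10.5 and 22 with water. The BALB/c groups lay over each other.
Herpud1 had 411, 708, 706, 978 and 904 CPM with sucrose in C57BL6/J, against 364, 299, 355, 104 and 244 with water. In BALB/c it had 433, 465, 643, 582 and 397 CPM with sucrose, against 431, 459.7, 561, 338 and 703 with water. The groups were apart in C57BL6/J and overlapped in BALB/c. Sel1l likewise had 200.4, 352, 257, 336 and 360.0 CPM with sucrose in C57BL6/J, against 173, 157, 132, 108 and 129 with water.

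**Figure D5:**
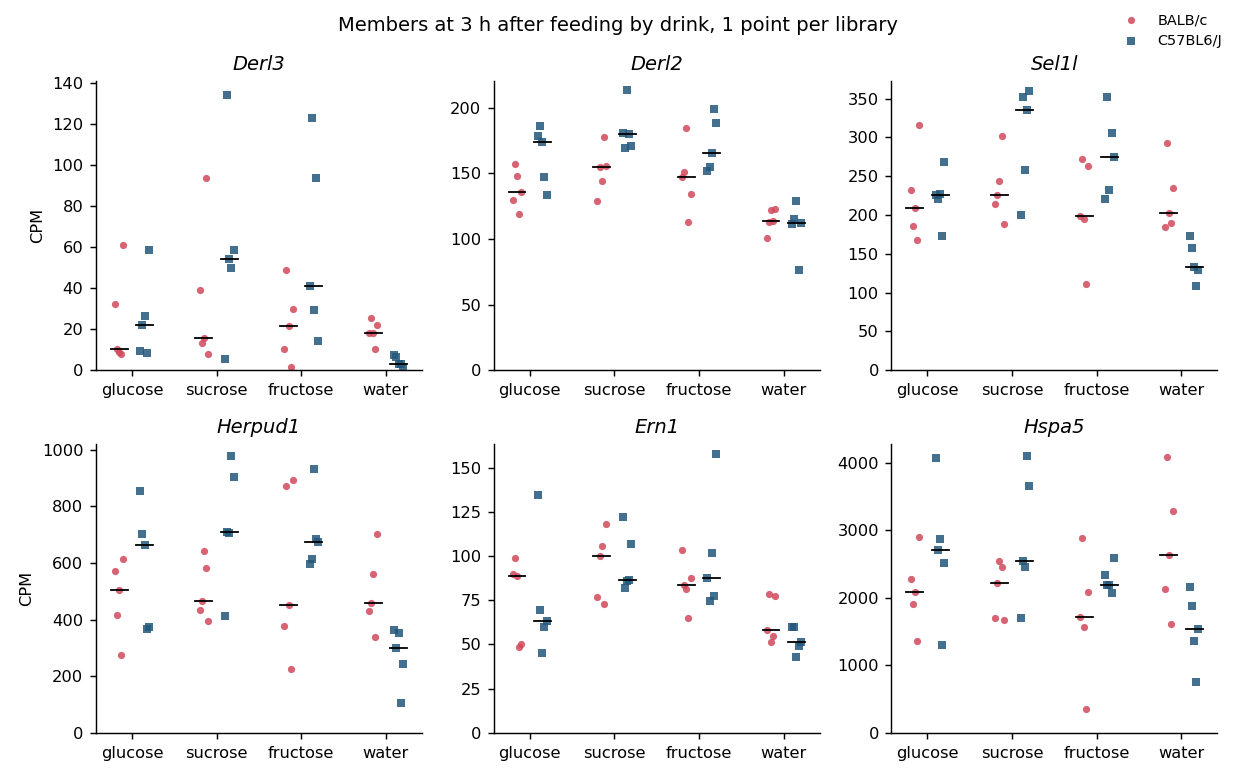
CPM of 6 genes at 3 h with glucose, sucrose, fructose or water; each point is a library, red circles are BALB/c, blue squares are C57BL6/J, and bars are medians. The C57BL6/J squares of Derl2, Sel1l, Herpud1 and Ern1 lie above water with sucrose and fructose, and the lowest Hspa5 circle with fructose is BALB/c replicate 4.

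Fitted in C57BL6/J alone, 8 genes were higher with sucrose at 3 h, where 1.07% of all genes were, and 9 with fructose, where 2.17% were, with Syvn1 and Pdia4 called in each. In BALB/c alone 0 were called with any sugar by edgeR, and few passed an unadjusted p below 0.05: 1 higher with glucose, 2 higher and 1 lower with sucrose, and 1 higher and 4 lower with fructose. Of the 16886 genes tested, 242, 786 and 1255 passed it in BALB/c with these sugars. The difference between strains was itself tested and called 0 of the 42 genes for each sugar at 3, 6 and 12 h by edgeR. At 3 h, 10 genes with glucose, 19 with sucrose and 20 with fructose passed an unadjusted p below 0.05, all with the lower change in BALB/c. Over all 16886 genes, 428, 555 and 580 passed it for these sugars in either direction. On water at 3 h the median of the mean log2 CPM over the 42 genes was 7.48 in BALB/c and 7.03 in C57BL6/J, and its part in these differences was not tested. For Sel1l with sucrose the change was 0.09 ± 0.19 in BALB/c and 1.11 ± 0.19 in C57BL6/J.
Without the low C57BL6/J water library, the 5 fructose calls remained and Herpud1 lost its sucrose call (0.62, adjusted p 0.115). Without libraries nearer to another time, Herpud1 lost its call with sucrose (0.68) and with fructose (0.66), and Sel1l lost its call with fructose (0.44). In libraries with no name suffix, 0 genes were called with glucose, 2 with sucrose (Derl2 and Derl3) and 1 with fructose (Derl2).
At 6 h, 3 genes were higher with glucose, where 0.545% of all genes were: Derl3 (2.25 ± 0.49), Ern1 (0.62 ± 0.16) and Hsp90b1 (0.57 ± 0.15). With sucrose 2 were, where 0.58% were, Derl3 (2.14 ± 0.49) and Derl2 (0.36 ± 0.09). With fructose Ssr2 was lower (-0.36 ± 0.10), where 0.646% of all genes were lower. All 6 calls were lost in libraries with no name suffix and without libraries nearer to another time. The latter setting leaves out replicates 2, 3 and 4 of BALB/c water at 6 h, so few water libraries of that strain remain. At 12 h, 0 were called with any sugar for the mean of both strains by edgeR. At an unadjusted p below 0.05, 27 of the 42 were higher with glucose, 1 with sucrose and 3 with fructose, and 0 were lower. Over all 16886 genes, 901, 734 and 714 passed it in either direction. Fitted apart, 27 of the 42 passed it with glucose in C57BL6/J and 0 in BALB/c. The glucose values for the mean of both strains did not survive the correction over all genes, and 1 gene was called in C57BL6/J alone.

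Other genes of these processes were counted from lists apart from the 42, and their counts at 3 h stand beside the 12.7% of all genes called in each direction. At 3 h on water, 9 of 20 other folding genes were higher and 0 lower, led by Mogs (0.66 ± 0.10), which trims the first glucose of N-glycans, Hspa13 (1.01 ± 0.22) and Cnpy3 (0.35 ± 0.08). Of 23 other translocation and glycosylation genes, 10 were higher and 1 lower, led by the signal recognition genes Srprb (0.93 ± 0.13) and Srp68 (0.63 ± 0.09) and by Rpn1 (0.55 ± 0.10). Of 20 other vesicle transport genes, 9 were higher and 0 lower, led by Sec22b (0.72 ± 0.12), Sec24c (0.41 ± 0.07) and the cargo receptor subunit Mcfd2 (0.58 ± 0.13).
The shares of the next 2 lists were near those of all genes. Of 18 other degradation genes, 3 were higher and 2 lower, with Ubxn4 (0.99 ± 0.11) and Ube2g2 (0.51 ± 0.09) higher and Erlec1 (-0.35 ± 0.10) lower. Of 12 other sensors and factors, Nfya (0.82 ± 0.12), a subunit of the factor that binds CCAAT, and Atf6b (0.73 ± 0.12) were higher, and Mbtps1 (-0.29 ± 0.08), a protease that cuts ATF6, was lower.
Of 12 output genes of PERK and ATF4, 3 were higher and 6 lower, and their median log2 fold change was -0.69. Sesn2 (-2.16 ± 0.19), Chac1 (-3.69 ± 0.43) and Trib3 (-2.07 ± 0.25) were lower in 10 of 10 libraries, while Ddit3 (1.48 ± 0.20), which encodes CHOP, Atf3 (2.03 ± 0.35) and Atf4 (0.46 ± 0.12) were higher in 10 of 10.

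Across the 26 group means of log2 CPM, the genes most like Hspa5 among the 42 were Hyou1 (Pearson r 0.9961), Creld2 (0.9956), Manf (0.9851), Sec23b (0.9806) and Hsp90b1 (0.9785). Those least like it were Ppib (-0.1611), Sil1 (0.0683) and Atf6 (0.0888). Of genes on no list with a mean of at least 5 CPM, Slc17a9 (0.9854), Gmppb (0.9843), Tmed3 (0.9831), Tmed9 (0.9812) and Uso1 (0.9802) were most like it. These are descriptions over group means that share strain, drink and time.

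Markers of other secretory cells were low in the median library, with exceptions. The 9 plasma and B cell markers summed to 3.36 to 76.0 CPM per library. In BALB/c on water their medians were 26.9 CPM at 3 h and 35.1 at 0 h, and in C57BL6/J they were 8.16 and 9.70. With glucose, sucrose and fructose at 3 h the medians were 12.7, 6.48 and 32.4 CPM in C57BL6/J. In BALB/c they were 23.0, 31.3 and 31.2 CPM. The 10 pancreatic acinar markers summed to 8.65 to 2140 CPM, the highest in 1 C57BL6/J glucose library at 6 h. On water, Cela1 had the highest median of the 10 at each time, and Pdia2 and Amy2a5 had a median of 0. Adrenal markers reached 652 CPM in a C57BL6/J water library at 6 h, with a median over all libraries of 4.05. Kidney markers reached 1620 CPM in a BALB/c glucose library and 974 in a BALB/c water library, both at 6 h. Their median over all libraries was 0.629. The 10 skeletal muscle markers moved with time on water. Over 0, 3, 6 and 12 h their summed medians were 157, 151, 143 and 0.895 CPM in BALB/c, and 223, 37.1, 277 and 1.52 CPM in C57BL6/J. The part of these markers in the results was not tested. Exons of 13 of the 42 genes overlap an annotated gene on the opposite strand, the most for Ppib, which shares 825 bases with Snx22, and Sec61a1, which shares 549 with Gm44170. No source used here states whether counting used strand, so reads of these pairs cannot be told apart.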

How the data were processed

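Liver RNA was sequenced by Illumina, per the labels. The authors deposited raw counts per gene and FPKM values for every library. CASAVA, STAR 2.5, HTSeq 0.6.1 and DESeq2 are named with mm10 (GRCm38), without their order, per the submitters' processing notes. No source used here states whether counting used strand. Each deposited FPKM value equalled the count divided by library total and gene length, with a largest relative difference of 5e-12, so FPKM is used only for levels between genes.

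Total counts were 18541545 to 43118895 per library, and intervals and errors cover these libraries only. Libraries of a group were compared in 252 pairs: none held equal counts, and chi-square over its degrees of freedom was at least 18.77. The tests used edgeR 4.0.16 (R 4.3.3): filterByExpr over the 26 groups kept 16886 genes, library sizes were scaled by TMM, and 1 model with a mean per group was fitted to all libraries. Contrasts used the robust quasi-likelihood test with Benjamini-Hochberg adjustment over all tested genes at 0.05. Time and drink contrasts are the mean of both strains' effects. CPM values take library sizes after TMM scaling, with 1 as prior count on the log2 scale. A member is called higher or lower where its adjusted p is below 0.05. Libraries showing a direction were counted against the mean CPM of the compared group of their own strain. The fit was tested on simulated data, and promoter windows came from RefSeq (GRCm38.p6).

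The members, gene lists, tests and the alternatives were chosen with earlier results of these data known. Named genes are, per role, the member with the smallest p at 3 h on water. The sensors Atf6, Ern1 and Eif2ak3 and their factor Xbp1 are also named. So are members called at no time and, per other contrast, the called members with the smallest p. Other members are named where a count is broken down. Alternatives were DESeq2 1.42.0, RLE factors, no filter, a replicate block, the name suffix as a covariate, libraries with no suffix, the libraries of the contrast alone, each replicate number left out, and libraries that stand apart left out. The names of 34 libraries end in a letter a that no source used here explains. The main fit had no term for this suffix, and alternatives took it as a covariate or left these libraries out. C57BL6/J water replicate 2 at 0 h carries the suffix, so leaving out the suffix libraries also leaves out that one. Leaving out C57BL6/J water 3 h replicate 4, alone or with 3 others, was added after the data were seen. Replicate numbers recur across groups. Deviations of same-numbered libraries correlated by 0.076 on average and by -0.427 at the lowest, against an average of -0.019 for other numbers. The labels do not pair mice by number, so the main fit had no replicate term, and a replicate block was an alternative.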

Additional observations from a re-analysis of the deposited data

Results flagged for a closer look

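A single library lay far from the rest of its group in 15 of 114 tests. The tests share libraries and genes that move together, so a chance rate of about 1 in 20 for independent tests does not apply. The mean log2 CPM over the 42 genes was 6.3 in BALB/c fructose replicate 4 at 3 h and 6.43 in BALB/c fructose replicate 4 at 6 h, both low. The single-gene tests covered only the gene of smallest p per role and the sensors with their factor, not all 42. Of the genes tested, C57BL6/J water replicate 2 at 0 h was high in 7, with 937 CPM of Calr, 102 of Sdf2l1, 336 of Syvn1, 330 of Xbp1, 318 of Pdia4, 169 of Ssr1 and 91.0 of Sec23b. Hspa5, which was not among the tested genes, had 2132 CPM in that library. Single values also stood apart for Fkbp11 (21.7 CPM) and Ssr1 (106 CPM) in C57BL6/J water replicate 4 at 12 h, and for Calr (432 CPM, low) in replicate 3 of that group. The others were Syvn1 in BALB/c water replicate 4 at 0 h (96.7 CPM), Ern1 in BALB/c water replicate 2 at 12 h (86.0 CPM) and Eif2ak3 in C57BL6/J water replicate 4 at 3 h (9.39 CPM, low).

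The change at 3 h on water differed between strains, by the interaction term of the edgeR fit, in 8 genes. BALB/c minus C57BL6/J was 1.07 for Calr, 1.42 for Hsp90b1, 1.17 for Sel1l, 2.07 for Sdf2l1, 2.14 for Creld2, 1.72 for Pdia4, 1.88 for Hspa5 and 1.87 for Hyou1 on the log2 scale. At 12 h it was 0.96 for Xbp1, 2.19 for Sdf2l1 and 1.79 for Manf. Without C57BL6/J water replicate 2 at 0 h, Sel1l alone of these 11 differences was called.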

How the results depend on the processing

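Of the alternatives run, the count of genes higher on water stayed between 24 and 31 at 3 h, between 27 and 31 at 6 h, and between 29 and 34 for those lower at 12 h than 6 h when each replicate number was left out.
Leaving out a replicate number gave 0 to 1 genes lower at 3 h, 0 to 1 lower at 6 h, 3 to 11 lower at 12 h, and 1 to 6 called between 3 and 6 h. For sugars it gave 0 to 1 (glucose), 3 to 5 (sucrose) and 2 to 5 (fructose) at 3 h, and 0 to 4, 0 to 2 and 0 to 0 at 6 h. It gave 2 to 17 for strain at 0 h and 0 to 11, 0 to 1 and 0 to 7 for strain by time at 3, 6 and 12 h. In C57BL6/J it gave 3 to 19 higher at 3 h, 11 to 21 higher at 6 h and 6 to 11 called at 12 h.
The number of genes lower at 3 h became 1 with DESeq2, the replicate block, the suffix as covariate and without C57BL6/J water replicate 2 at 0 h. That library's loss also gave 4 lower at 12 h, 2 for strain at 0 h, 1 and 0 for strain by time at 3 and 12 h, 5 with glucose at 6 h, and in C57BL6/J 19 higher at 3 h and 6 called at 12 h. Without the 4 libraries that stood apart these were 4, 2, 1, 0, 8 and, at 3 h in C57BL6/J, 22, with 9 higher at 12 h and 3 called with fructose at 6 h. Without the low C57BL6/J library at 3 h, 4 were called between 3 and 6 h and 0 for strain by time at 3 h. Leaving out the 4, or the low library alone, was chosen after seeing the data.
Without libraries nearer to another time, 0 were lower at 6 h, 8 higher and 3 lower at 12 h, 3 called with fructose at 3 h, 20 higher at 3 h and 5 called at 12 h in C57BL6/J, and 0 between 3 and 6 h, for strain at 0 h, for strain by time at 3 and 12 h and for each sugar at 6 h. In libraries with no suffix, 3 were lower at 12 h, 0, 2 and 1 called with glucose, sucrose and fructose at 3 h, 2 between 3 and 6 h, 2 for strain at 0 h, 6 in C57BL6/J at 12 h, and 0 for strain by time at 3 and 12 h and for each sugar at 6 h. With the libraries of the contrast alone, 3 were higher and 5 lower at 12 h, and 0 with glucose and 3 with fructose were called at 3 h. With no filter, 3 and 0 were called for strain by time at 3 and 12 h, and 1 with glucose and 0 with fructose at 6 h. Glucose at 6 h gave 5 with RLE factors and 7 with the suffix as covariate.
The labels do not state whether replicate numbers pair the mice. In the data most libraries, 85, lay closest to their own number. This hints at a link between same-numbered libraries, and its source was not tested. With the replicate block, 31 genes were higher at 3 h and 32 at 6 h, and 6 were called with glucose and 2 with fructose at 6 h.
Signs turned for Atf6 without replicate 1, at 3 h (-0.33 to 0.09 over the replicates left out) and at 12 h (-0.47 to 0.12), for Ern1 at 6 h without replicate 4 (-0.01 to 0.22) and for Eif2ak3 at 12 h without replicate 2 (-0.04 to 0.25). For strain at 0 h they turned for Sdf2l1 (0.03, 0.08, 0.09, 0.07 and 0.14, from -1.68 over the replicates) and Creld2 (0.23, 0.09, 0.27, 0.25 and 0.33, from -1.59), in each case with no suffix, without nearer libraries, without the fed-like library, without the 4 and without replicate 2, and for Calr (0.01) without nearer libraries. Where no library was left out, the cause was not tested. Deposited FPKM equal counts per length and total, so they gave no separate fit. Counting error weighs more on genes of low CPM, such as Eif2ak3 (mean 15.3), Fkbp11 (22.2) and Derl3 (22.6).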
